A study of Sus scrofa with 57 samples.

Results

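Of 2416 regions that differed in CpG methylation between adipocytes of lean and obese pigs by reduced representation bisulfite sequencing (RRBS), 1194 were partly methylated in the lean group. The members were chosen by the lean group mean alone, which had to be at least 0.1 and under 0.5 as a fraction, that is 10% to under 50%. In RRBS the enzyme MspI cuts DNA at CCGG sites, and bisulfite then turns unmethylated cytosines into uracil, so that methylation can be read at each CpG of the fragments. All regions of the table held at least 10 CpGs.

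The pigs were Duroc-Göttingen minipig F2 intercross animals of the UNIK population, taken from its lean and its obese extreme, kept in the same environment with free access to food and slaughtered at 8 to 13 months. Mature adipocytes, the fat-filled cells that float after collagenase digestion, were isolated from retroperitoneal fat. RRBS and methylated DNA capture (mDNAcap) covered 11 lean pigs (8 boars and 3 sows) and 12 obese pigs (8 boars and 4 sows), and RNA was sequenced in 5 lean and 5 obese boars. Pig-411 carries an obese label but was counted as lean, because the study's group sizes and the list of control libraries in the mDNAcap table place it there. The obese boar pig-572 had 2 RNA libraries, which were averaged, and the second of them carries another number in its description.

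DNA methylation in mammals sits mainly on the cytosine of CpG pairs. CpG-dense promoters are usually free of it, gene bodies and repeats usually carry it, and intermediate levels arise where the alleles differ, as at imprinted loci and on the inactive X chromosome, or where the cells of a sample differ. In fat cells, methylation accompanies the choice of the adipocyte lineage, and developmental transcription factor genes differ in it between fat depots.

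The markers of mature adipocytes that had a name in the expression tables, 4 of the 10 looked for, all had a mean FPKM (fragments normalised to transcript length and library size) of at least 1. Summed, they reached 553 to 707 in lean and 728 to 874 in obese boars, whereas the macrophage and leukocyte markers summed to 2.98 to 5.86 and 3.27 to 6.31, with CD163 under 0.1. Endothelial markers summed to 1.48 to 12.2 and 3.34 to 8.33, fibroblast and preadipocyte markers to 225 to 688 and 248 to 616, and skeletal muscle markers to 0.195 to 0.416 and 0.189 to 1.03. The adipocyte sums of the groups therefore did not overlap, and their part in the results was not tested. In bulk samples, fewer cells of a type and less RNA per cell cannot be told apart.

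The members ranged from 10.02% to 49.99% methylation in the lean group, with a median of 21.1%, and from 0% to 74.4% in the obese group, with a median of 31.0%. These are the authors' group means, which carry no error. In the obese group 776 members were higher (64.99%, 95% Wilson interval 62.2% to 67.6%) and 418 lower. The higher members had medians of 22.3% in lean and 38.6% in obese pigs, and the lower members 18.2% and 4.44%. In 272 members the obese mean lay under 10%, and in 192 it was 50% or more. The median size of the difference was 13.9 percentage points. Because the region search used this same contrast, the differences are a description and were not tested.

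**Figure D1:**
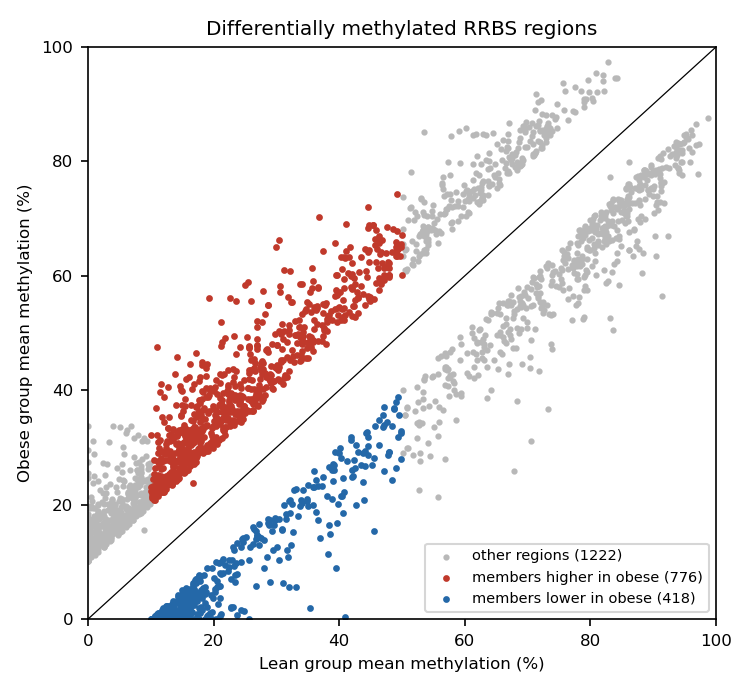
Obese group mean methylation against lean group mean methylation, both in percent, for all 2416 RRBS regions, 1 point per region. The 776 members above the diagonal (red) and the 418 below it (blue) fill the lean range of 10% to under 50%, and the empty band along the diagonal is the difference the region search required.

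Direction varied with the lean level. Between 10% and 20% lean methylation, 326 of 555 members (58.7%) were higher in the obese group. The share was 216 of 290 (74.5%) from 20% to 30%, 126 of 184 (68.5%) from 30% to 40%, and 108 of 165 (65.5%) from 40% to 50%. Of 163 members that differed by at least 20 points 130 were higher, but a member with a lean mean under 20%, as 555 had, cannot be lower by that much. How far this shapes the split was not tested. All 423 regions with a lean mean under 10% were higher in the obese group, a direction that their low lean level and the required difference fix, and of the 799 regions at 50% or more 276 were higher (34.5%, interval 31.3% to 37.9%). The band itself bears on the split: set on the obese mean, it held 1274 regions of which 79.0% were higher, and set on the mean of both groups, 1242 regions of which 76.1% were higher.

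**Figure D2:**
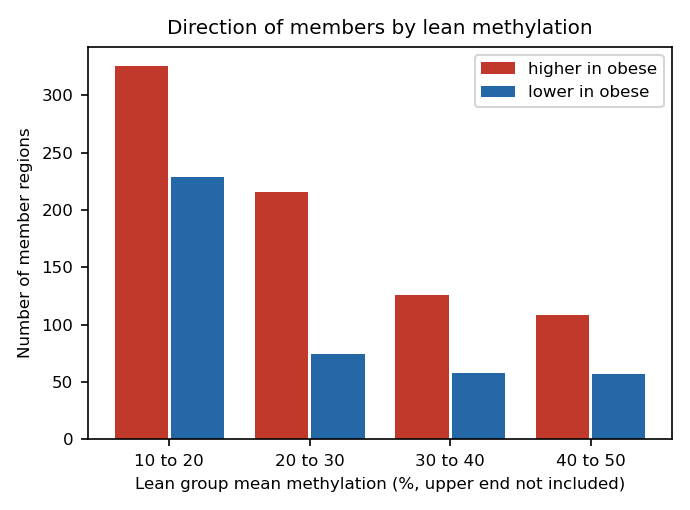
Number of member regions (bars) that were higher (red) or lower (blue) in the obese group, by lean group mean methylation in percent. From 10% to 20% there were 326 higher and 229 lower members, and higher members were the more frequent in every bin.

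Lean means ran on without a gap across both bounds. Just inside the lower bound, a region 45378 bases from MPPED1 had 10.02% in lean and 32.2% in obese pigs. The region 11258 bases from ROPN1 and the region on C12ORF53, both at 10.03% in lean pigs, were listed at 0.0001% in obese pigs. Just outside lay regions at 9.91% (obese 20.8%, 4994 bases from STK25), 9.96% (obese 24.98%, 17987 bases from a microRNA gene, ssc-mir-378-1) and 9.99% (obese 24.6%, 236953 bases from F13A1). At the upper bound, the inner neighbours were on ANK1 (49.9% and 28.0%), 1231 bases from F10 (49.9% and 67.1%) and on GIT1 (49.99% and 60.1%). The outer ones were 103 bases from KBTBD6 (50.1% and 65.6%), on MAEA (50.1% and 63.5%) and on an unnamed gene of chromosome 7 (50.1% and 29.1%).

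The members were short, with a median of 151.5 bases (quartiles 87 and 262) and 10 CpGs, and had a median of 7.19 CpGs per 100 bases. Regions with a lean mean under 10% were denser, with a median of 10 CpGs per 100 bases, and those at 50% or more were sparser, with 6.01. Of the members, 547 (45.8%, interval 43.0% to 48.6%) overlapped a gene locus of the expression tables, and 736 lay on or within 5000 bases of one. The shares on a locus were 52.0% (47.3% to 56.7%) for regions under 10% and 44.4% (41.0% to 47.9%) for regions at 50% or more. These intervals cover counting error only, and the depth of single regions is unknown. Outside the loci, the median distance to the nearest gene was 16215 bases. There were 30 pairs of members within 1000 bases of each other, and 22 pairs had the same direction. As most members were higher, many pairs would share a direction whatever their distance, and this count was not tested.

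On chromosome X there were 80 members (6.70%, interval 5.42% to 8.26%), against 27 of the regions under 10% (6.38%) and 22 of those at 50% or more (2.75%, interval 1.83% to 4.13%). Of the 80, 56 were higher in the obese group, with medians of 16.7% in lean and 33.5% in obese pigs, and 24 were lower, with medians of 27.1% and 11.2%. The RRBS groups held 3 sows of 11 lean pigs and 4 sows of 12 obese pigs. Since only 3 pigs of a group were required at a region and the pigs behind each mean are not given, the part of sex in these differences was not tested. The longest run of CpGs among all members, 64 in chrX:65085416-65086027 (coordinates of Sscrofa10.2, as the files give them), lay on a locus that carries a clone name and read 42.3% in lean and 54.8% in obese pigs.

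Among the members on or within 5000 bases of a named gene, the largest difference toward the obese group was on DGKD, which encodes a diacylglycerol kinase. At chr15:147875250-147875335, 11 CpGs read 19.2% in lean and 56.1% in obese pigs, and at a second member on the same gene, chr15:147897638-147897864, methylation was 33.4% in lean and 17.9% in obese pigs. TRIM66, a chromatin reader, followed with 30.5% against 66.2% (chr9:921354-921491). On ARHGAP27 29.97% stood against 65.1% (chr12:18308481-18308552). On FBXO41, an F-box protein of ubiquitin ligases, it was 22.5% against 56.2% (chr3:72715388-72715664), and on SLC37A1, a phosphosugar transporter, 36.8% against 70.3% (chr13:216332728-216333048). In each of these 5 the obese mean passed 50%, so that the region left the partly methylated range.

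In the other direction, the region on NHS, a regulator of the actin cytoskeleton, read 39.5% in lean and 9.004% in obese pigs (chrX:14952534-14952723). On MLLT3, a subunit of complexes that promote transcription elongation, it was 45.5% against 15.5% (chr1:225902127-225902203), and on BIN3, a BAR-domain protein, 38.3% against 11.4% (chr14:7363456-7363670). A region within 5000 bases of PLXNB3, a semaphorin receptor, and IDH3G, a subunit of mitochondrial isocitrate dehydrogenase, had 32.05% against 5.53% (chrX:142088892-142088986), and ANKRD58 31.1% against 6.37% (chrX:113454540-113454851). Of these 10 regions 3 were on chromosome X, and all 3 were lower in the obese group. The largest difference of all members, singled out after its values were seen, stood 5261 bases from SIX2, a homeobox gene, at chr3:101503318-101503399, where 10 CpGs read 40.9% in lean and 0.396% in obese pigs.

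Genes of homeobox and developmental transcription factors, which set body position and cell identity, made up the longest list. Of all 25285 genes, 823 had a member on or within 5000 bases, to be read beside the counts of this and the other lists. Of 171 listed genes in the tables, 23 had such a member, with 30 members in all. Of these 12 were higher and 18 lower in the obese group, whereas 64.99% of all members were higher. Their medians were 21.4% in lean and 19.4% in obese pigs, and in 11 of the 30 the obese mean lay under 10%.

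Among the lower ones, a region near EBF3, of the early B cell factor family that includes adipocyte regulators, read 36.6% in lean and 17.3% in obese pigs (chr14:151056139-151056304). MSX1, a homeobox repressor, had 40.4% against 21.5% on the gene and 15.97% against 4.40% beside it, so both of its members were lower. TBX4, the T-box gene of hindlimb identity, had 3 members that were all lower, at 23.2% against 9.26%, 14.6% against 3.86% and 40.2% against 29.98%. The first 2 of these are 6 bases apart.

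FOXL2, a forkhead factor of the ovary, read 21.0% and 3.67% (chr13:87351849-87352127), and PAX6, the eye and pancreas regulator, 17.2% and 4.36%. IRX3 and IRX4, of the Iroquois family, read 20.5% and 5.58%, and 18.7% and 5.61%. LHX9, of the LIM homeobox genes, had 38.05% and 21.5%, HOXD4 26.98% and 14.75%, and EBF4, ZIC5 and ONECUT3 were lower with obese means of 4.82%, 2.37% and 1.38%.

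Higher in the obese group were all 3 members around SIM2, a bHLH-PAS factor, with 11.1% against 31.0%, 11.2% against 24.4% and 26.6% against 38.2%. A region within 5000 bases of HOXA3 and HOXA2, chr18:50100035-50100239, read 42.3% and 59.7%. On PRDM16, which directs the brown adipocyte program, 17.8% stood against 37.8% (chr6:59668437-59668663). HOXB9 and SIM1 each had 1 higher and 1 lower member. Near HOXB9 these were 30.5% against 41.6% and 22.3% against 8.48%.

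Imprinted genes are expressed mainly from 1 parental allele, and their control regions are methylated on 1 of the alleles. Of 48 listed imprinted genes in the tables, 8 had a member, with 8 members in all, 6 higher and 2 lower in the obese group. One region, chr17:46043493-46043560, lies on NNAT, which encodes the membrane proteolipid neuronatin, and on BLCAP, whose locus encloses it; its 10 CpGs read 48.0% in lean and 29.3% in obese pigs. On MEST, a gene of the hydrolase fold tied to adipocyte size, chr18:19341251-19341591 read 48.4% and 33.8%. GNAS, the stimulatory G protein subunit of hormone receptors, had 37.6% in lean and 50.6% in obese pigs (chr17:66415269-66415449). Another 2 members lay on GRB10, an adaptor that restrains insulin receptor signalling, with 18.1% against 31.4% and 15.1% against 32.5%. OSBPL5, a lipid transfer protein, had 36.6% against 58.1%, PPP1R9A, an actin-binding scaffold, 26.3% against 36.3%, and ZFP64, a zinc finger factor, 11.1% against 21.8%. The lean means of the NNAT, BLCAP and MEST regions were thus the nearest to 50% among these.

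**Figure D3:**
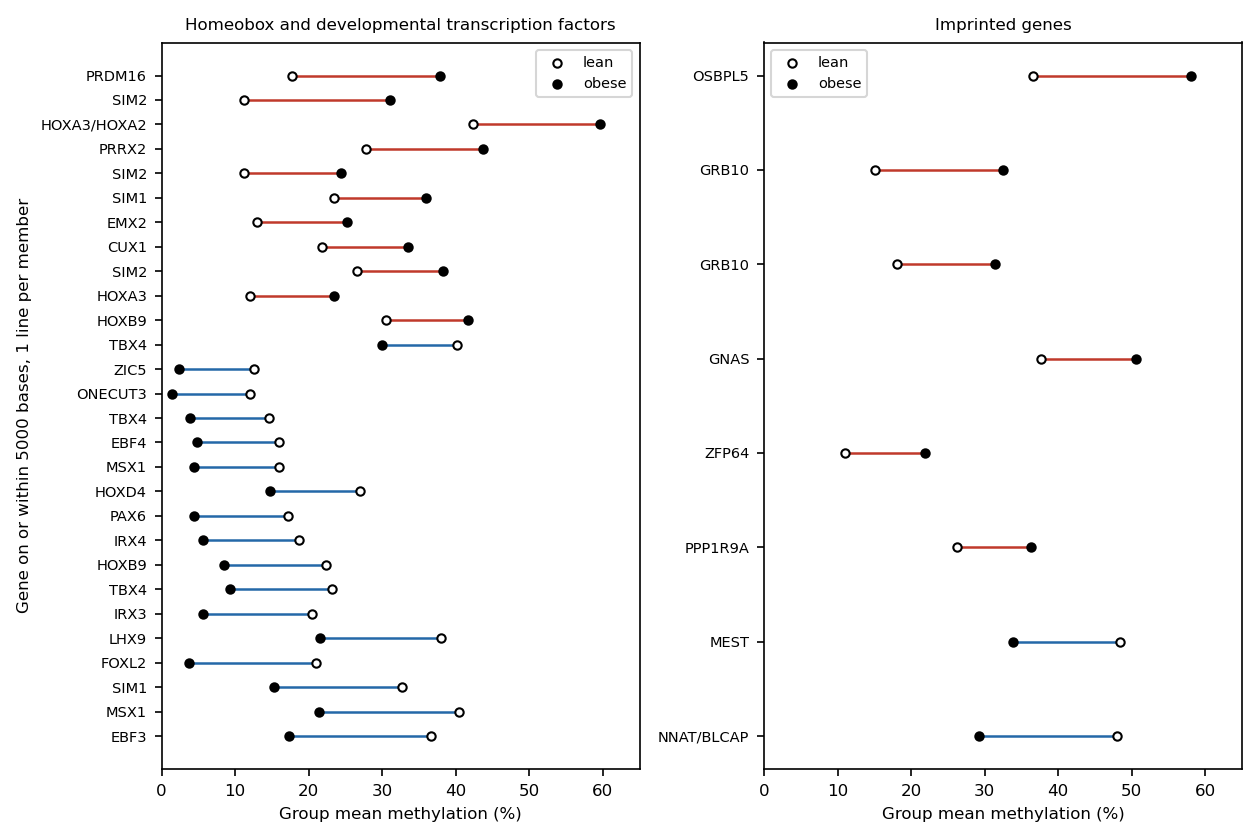
Lean (open circles) and obese (filled circles) group mean methylation in percent for members on or within 5000 bases of a listed developmental transcription factor gene (left, 28 of the 30 members) or imprinted gene (right, all 8 members). Red lines mark members higher in the obese group and blue lines lower ones, and 17 lines are blue on the left and 2 on the right.

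Genes of adipocyte lipid and hormone metabolism had 5 members at 3 of 42 listed genes. All 5 were higher in the obese group, to be read, as in the other lists, beside the 64.99% of all members. FASN, the fatty acid synthase that makes palmitate, held 3 of them within 8843 bases. At chr12:1023785-1024264, 19 CpGs read 15.2% in lean and 36.3% in obese pigs, at chr12:1026884-1027022 47.1% and 60.2%, and at chr12:1032356-1032628 11.2% and 25.1%. Near LSS, the lanosterol synthase of cholesterol synthesis, 11.02% stood against 23.7% (chr13:218542229-218542402). PRDM16, given above, is the other gene.

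In insulin and mTOR signalling, 3 of 49 listed genes had a member, and all 4 members were higher in the obese group. AKT2, the insulin-responsive kinase, had 40.9% against 53.2% (chr6:44340320-44340512). Near SHC1, an adaptor of receptor tyrosine kinases, 21.0% stood against 34.6% (chr4:103587810-103587966), and the other 2 were those of GRB10.

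In MAPK, Wnt and growth factor signalling, 5 of 75 genes had a member, 4 higher and 1 lower. On JAG2, a Notch ligand, 22.3% stood against 43.6%, on AXIN1, a scaffold of beta-catenin breakdown, 22.3% against 40.9%, on SMAD6, an inhibitor of BMP signalling, 12.5% against 22.7%, and on PDGFRB, a receptor of mesenchymal cells, 11.1% against 21.7%. WNT2, a Wnt ligand, was the lower one, with 17.6% against 4.29%.

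Extracellular matrix genes had 8 members at 8 of 52 genes, 6 higher and 2 lower. The higher ones included COL5A1, a fibrillar collagen chain (24.2% against 47.5%), COL6A1, a microfibrillar collagen chain (19.5% against 40.4%), ACAN, the proteoglycan aggrecan (44.7% against 62.3%), and ELN, elastin (24.9% against 41.8%). COL16A1 (15.6% against 3.77%) and LAMB1, a laminin chain (15.6% against 5.32%), were lower. Among the enzymes of DNA methylation and chromatin, DNMT3L, a cofactor of the de novo methyltransferases, had 21.1% against 34.6%, and a region near SUZ12, of Polycomb complex 2, 15.6% against 1.27%. Of 11 genes that the study followed by expression and methylation, HLCS, which attaches biotin to carboxylases, and COL6A1 had a member, both higher. That list was picked on these animals and is no independent evidence of direction.

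Around 11 genes, 3 or more members lay on or within 5000 bases, 35 members in all. All members of FASN, TMEPAI, an inhibitor of TGF-beta signalling, TNFRSF19, a receptor of the TNF family, STK25, a kinase of lipid droplets, and SIM2 were higher in the obese group, and all of TBX4 lower. TMEPAI held 4, from 13.6% against 26.7% to 49.2% against 65.5%. STK25 held 3, at 17.7% against 41.6%, 20.3% against 36.5% and 20.4% against 41.8%.

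Members of opposite direction met on the other 5 genes. On PXDN, a peroxidase that crosslinks collagen IV, chr3:141723357-141723521 read 37.8% in lean and 54.9% in obese pigs, and chr3:141723854-141723982, only 333 bases further, 45.3% and 26.9%. SEPT9, a cytoskeletal GTPase, held 3 lower members (14.2% against 1.09%, 47.8% against 28.7%, 45.8% against 33.7%) and 1 higher member (46.8% against 66.2%). CDH23, a cadherin of the inner ear, and CCDC57 were mixed as well. On CCDC57 1 member was higher (35.7% against 61.4%) and 2 were lower (21.2% against 7.96% and 35.8% against 19.99%).

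A second table required values from 5 pigs of each group in place of 3. It held 610 regions, of which 357 fell in the same lean band, and 243 of these (68.1%) were higher in the obese group. Of the members, 224 overlapped a region of that table, 223 of them in the same direction. The lean means of the pairs differed by a median of 1.62 points. The tables come from the same libraries and do not replicate each other.

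In mDNAcap, fragments with methylated CpGs are captured by a methyl-binding protein on beads and counted, so that a higher count stands for more methylated DNA at that place. The captured regions of the deposited table had been called on these same pigs, with 11 libraries per group (obese pig-584 has none there), and limma called 96.2% of its 7401 regions at an adjusted p-value under 0.05 (Benjamini-Hochberg) between the groups, 27.1% of them all as higher in the obese group. Of the members, 45 (3.77%, interval 2.83% to 5.01%) overlapped 43 captured regions, against 42 of the 799 regions at 50% or more and 2 of the 423 under 10%. In 40 of the 45 both assays were higher in the obese group, in 1 both were lower, and in 4 they were opposite. The captured count was thus higher at 42 of the 45 members, and it was mostly higher at the regions with a lean mean of 50% or more as well, whatever the RRBS direction: of their 42 pairs, 17 were higher and 4 lower in both assays, 20 were lower in RRBS with a higher captured count, and 1 was the reverse. The shared direction at the members is therefore a description of assays that were each mostly higher there. Over the 43 captured regions, 41 were called, 38 higher and 3 lower, with a median log2 fold change of 0.61, compared with -0.67 over all 7401 regions. In none of the 43 were the 11 lean and the 11 obese pigs without overlap, as in 0.149% of all captured regions.

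The scaling moved the direction over the whole table more than the count at the members. With the median of ratios, 40 of the 43 were called, all higher, beside 2932 of all 7401 regions, where the main fit called 7118. The share of higher regions among all calls of the table was 72.5% in place of 28.2%. Adjusted for the mean count per 1000-base bin of each library, an alternative chosen after seeing the data, 0 of the 43 were called by limma, as were 0 of all 7401, and 26 of the 43 had an unadjusted p-value under 0.05 in that limma fit, 25 of them higher (49.5% of all regions had one). That mean count, over the normalization constant, was 1.94 ± 0.351 in lean and 1.59 ± 0.417 in obese pigs (SD, n = 11 each). Its part in the counts was not tested further.

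**Figure D4:**
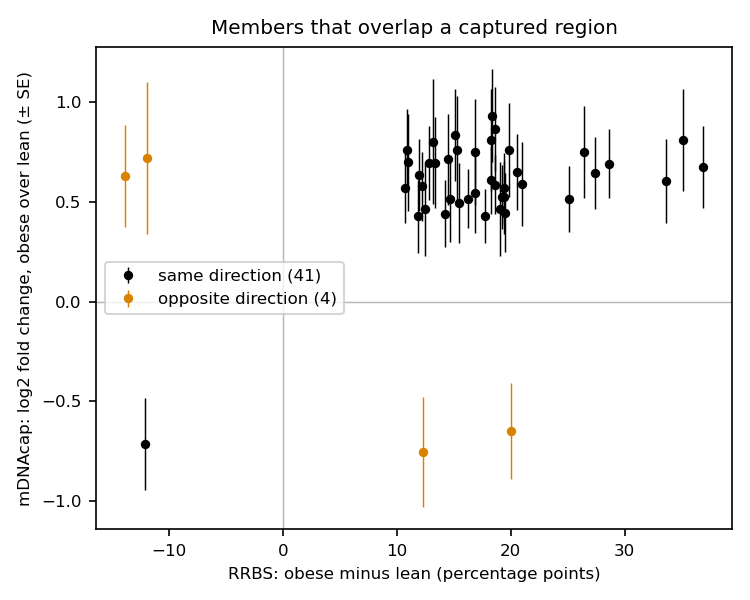
Captured DNA (log2 fold change of the normalized count, obese over lean, ± SE, 11 pigs per group) against the RRBS difference in percentage points for the 45 members that overlap a captured region. Of these, 41 have the same direction in both assays (black) and 4 the opposite one (orange).

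On DGKD the normalized count ran from 9.13 over a median of 16.8 to 39.5 in lean pigs and from 14.5 over 30.1 to 43.5 in obese pigs. The ranges overlapped, and the log2 fold change was 0.68 (SE 0.20, limma adjusted p = 0.0085). At FBXO41 the counts were 9.30, 19.5 and 31.5 (lowest, median and highest) in lean and 17.1, 24.8 and 49.4 in obese pigs (log2 fold change 0.61, SE 0.21, limma adjusted p = 0.0111). The 2 members on ARHGAP27 share 1 captured region, with 3.87, 14.6 and 21.1 against 12.3, 18.5 and 35.0 (log2 fold change 0.81, SE 0.26, limma adjusted p = 0.00883). These 3 were among the 42 of 45 members with a higher captured count. The captured regions had been called on these same pigs, and limma called 96.2% of all of them. The adjusted p-values here and below therefore do not set these members apart. With the mean count per bin as a covariate, the limma adjusted p-values were 0.0869 for DGKD, 0.132 for FBXO41 and 0.0902 for ARHGAP27.

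The highest log2 fold change at a member on a gene was at ITPK1, an inositol phosphate kinase, where RRBS read 36.0% in lean and 54.6% in obese pigs. Its counts were 10.3, 22.2 and 41.5 in lean and 23.8, 40.6 and 54.3 in obese pigs (log2 fold change 0.87, SE 0.21, limma adjusted p = 0.00849). Of the others on a gene, HSF2BP, a meiotic recombination factor, read 14.45% and 29.6% in RRBS with a captured log2 fold change of 0.84 (SE 0.23, limma adjusted p = 0.00849). A region 30840 bases from PPARGC1B, a coactivator of mitochondrial genes, had 21.8% and 49.1% in RRBS and counts of 8.07, 11.2 and 13.6 against 10.6, 17.4 and 32.0 (log2 fold change 0.65, SE 0.18, limma adjusted p = 0.00849).

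Lipid genes were among the others. AGPAT6, an acyltransferase of glycerolipid synthesis, read 20.2% and 31.1% in RRBS with a captured log2 fold change of 0.70 (SE 0.24, limma adjusted p = 0.0113). CHKA, the choline kinase that starts phosphatidylcholine synthesis, read 34.0% and 53.4% with 0.52 (SE 0.18, limma adjusted p = 0.0117). PLA2G6, a phospholipase, read 46.0% and 64.6% with 0.59 (SE 0.15, limma adjusted p = 0.00849), and a region 1290 bases from PEMT, which makes phosphatidylcholine from phosphatidylethanolamine, 25.7% and 41.9% with 0.52 (SE 0.15, limma adjusted p = 0.00849).

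The 4 opposite members were on EXOC2, of the exocyst (RRBS 28.4% and 40.6%, captured log2 fold change -0.75, SE 0.28, limma adjusted p = 0.0137), on GMDS, of GDP-fucose synthesis (49.5% and 35.7%, 0.63, SE 0.26, limma adjusted p = 0.0218), 99591 bases from ORAOV1 (30.3% and 50.3%, -0.65, SE 0.24, limma adjusted p = 0.0148) and 789 bases from a 5.8S ribosomal RNA gene. That last one (39.03% and 27.07%) lies inside a long captured region, chr6:863701-876800, with counts of 723, 3084 and 8242 in lean and 1370, 5275 and 13185 in obese pigs, far above the rest, and limma gave it an adjusted p of 0.0702. The member that was lower in both assays lay 5138 bases from CXCR7, a chemokine receptor (39.2% and 27.0%, -0.71, SE 0.23, limma adjusted p = 0.00915). Scaled by the median of ratios, the regions of EXOC2, ORAOV1 and CXCR7 were no longer called (limma adjusted p = 0.105, 0.15 and 0.112), and the region by the 5.8S ribosomal RNA gene was called (limma adjusted p = 0.0347). On the X-linked region of 64 CpGs named above the counts were 34.1, 55.3 and 122 in lean and 47.9, 71.6 and 180 in obese pigs, and limma gave an adjusted p of 0.0599, or 0.0182 with the median of ratios.

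The RNA of the genes that members overlap was compared between 5 lean and 5 obese boars. Of 505 such genes, 235 (46.5%) had a mean FPKM of at least 1 and were tested, compared with 40.3% of all genes in the tables, 50.2% of the genes on regions under 10% and 34.8% of those on regions at 50% or more. None of the 235 passed an adjusted p-value of 0.05 in limma, and of all 10190 genes tested 1 did (0.00981%). The study used another test, cuffdiff, on the same boars and reported differentially expressed transcripts, HLCS among them. Of the 235, 61 (26.0%) had an unadjusted p-value under 0.05 by limma, near the background of 20.8% of all genes tested. Of these 61, 45 were higher in obese boars and 16 lower. Of all 2122 genes with such a p-value, 1073 were higher (10.5% of genes tested) and 1049 lower (10.3%). The median locus length was 24166 bases for genes on members and 9033 for all genes, and the part of length was not tested. On regions under 10%, 27 of 112 genes tested (24.1%) had an unadjusted limma p-value under 0.05, 18 of them higher. On regions at 50% or more 29 of 110 (26.4%) did, 19 of them higher. The RNA of genes whose members were all higher in methylation gave 34 of 141, with 26 higher in obese boars, and that of genes whose members were all lower gave 23 of 86, with 16 higher. The lean and obese boars did not overlap in 12 of the 235 genes (5.11%), beside 4.16% of all genes tested. The median log2 fold change of the 235 was 0.08, and that of all genes tested -0.0023.

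The count rested on single animals and on the scaling. It was 36 without the third lean boar, 40 without the fifth lean boar and 40 without the fifth obese boar, with 14.3%, 14.8% and 14.4% of all genes, and 36 of 239 with FPKM as deposited, with 13.6% of all genes. Without the first lean boar, 5 of the 238 genes tested passed the adjusted threshold in limma, as did 165 of all genes.

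Across the gene lists as a whole, members or not, some tested genes had an unadjusted limma p-value under 0.05, to be read beside the 20.8% of all genes tested. These were 8 of 24 imprinted genes (3 of them higher in obese boars), 4 of 26 developmental transcription factor genes (0 higher), 10 of 42 adipocyte lipid and hormone genes (8 higher) and 12 of 41 insulin and mTOR genes (8 higher). They were 6 of 41 genes of MAPK, Wnt and growth factor signalling (2 higher), 6 of 37 extracellular matrix genes (1 higher) and 5 of 28 enzymes of DNA methylation and chromatin (3 higher). Of the 11 genes the study followed, picked on these animals, 7 had such a p-value (6 higher).

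Most listed developmental genes, with a member or not, were not transcribed to a level that could be tested. Of all 171 of them, 26 could be tested. Of the 23 with a member, 20 had a mean FPKM under 1, among them TBX4, SIM2, MSX1, FOXL2 and PAX6, whose highest FPKM in any boar was 0.0757. MEST, NHS, TNFRSF19 and PRDM16 stayed under 0.1 in every boar, and FBXO41 was listed at 0 in all. ARHGAP27, TRIM66 and PDGFRB had medians of 0.143, 0.460 and 0.353.

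The lowest p-value in RNA fell to an unnamed gene, ENSSSCG00000022710, at chr1:10697917-10817553, whose member read 18.1% in lean and 29.2% in obese pigs. Its FPKM, here and below divided by the size factor of the library, were 2.51, 2.16, 2.03, 1.99 and 2.50 in lean and 2.97, 3.05, 4.41, 3.89 and 3.95 in obese boars. All obese boars were above all lean boars, with a log2 fold change (on log2 of FPKM plus 1) of 0.52 (SE 0.10, limma adjusted p = 0.085). The exact permutation test gave p = 0.00794, the smallest that 5 against 5 boars allow.

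RAPGEF1, an exchange factor that activates the GTPase Rap1, holds 2 members, at 16.4% against 37.4% (chr1:305512656-305512971) and 14.5% against 33.03%. Its FPKM were 1.73, 1.54, 1.22, 1.39 and 1.48 in lean and 2.71, 2.33, 2.103, 2.07 and 2.44 in obese boars. Again no obese boar fell among the lean ones (log2 fold change 0.43, SE 0.09, limma adjusted p = 0.085). SPECC1L, a protein that ties actin to microtubules, with a member at 15.9% against 26.1%, had 22.3, 23.9, 12.6, 14.7 and 14.5 in lean and 32.4, 27.3, 33.3, 31.0 and 38.7 in obese boars. Its groups did not overlap either (log2 fold change 0.88, SE 0.18, limma adjusted p = 0.0883).

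Another 4 of the 10 genes with the lowest p-values were higher in every obese boar than in every lean one. They are APBA3, an adaptor that binds the amyloid precursor protein (member 49.8% against 65.1%), TBCD, a tubulin folding cofactor (46.7% against 58.5%), SLC38A10, an amino acid transporter (38.2% against 52.9%), and TADA2B, a subunit of the SAGA chromatin complex (29.5% against 41.6%). TBCD had 2.01, 2.04, 1.49, 1.62 and 2.12 in lean and 3.22, 2.18, 3.09, 2.76 and 3.23 in obese boars (log2 fold change 0.45, SE 0.11, limma adjusted p = 0.105). For the other 3 the log2 fold changes were 0.51, 0.49 and 0.39, with limma adjusted p-values of 0.0996, 0.11 and 0.112. The member on TBCD also overlapped a captured region with a higher count in obese pigs (log2 fold change 0.43, SE 0.18, limma adjusted p = 0.029).

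The remaining 3 of the 10 had groups that overlapped, 1 with a higher and 2 with a lower mean in obese boars. THBS2, a matrix protein that restrains blood vessel growth, with a member at 49.7% against 65.3% (chr1:1601190-1601293), had 13.8, 13.5, 27.3, 15.1 and 10.7 in lean and 4.21, 12.7, 7.20, 2.92 and 4.62 in obese boars. A single obese boar reached the lean range (log2 fold change -1.30, SE 0.33, limma adjusted p = 0.12, exact permutation p = 0.0159). SOD2, the mitochondrial superoxide dismutase, with a member at 31.9% against 56.3% (chr1:9479397-9479612), had 165, 118, 189, 169.8 and 187 in lean and 114, 116, 72.3, 123 and 95.2 in obese boars. Only the highest obese boar passed the lowest lean one (log2 fold change -0.67, SE 0.19, limma adjusted p = 0.132, exact permutation p = 0.0159). SLC12A7, a potassium chloride cotransporter, with a member at 40.5% against 52.6%, averaged 7.95 ± 2.24 in lean and 14.1 ± 3.42 in obese boars (SD, n = 5 each, log2 fold change 0.76, SE 0.21, limma adjusted p = 0.126).

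**Figure D5:**
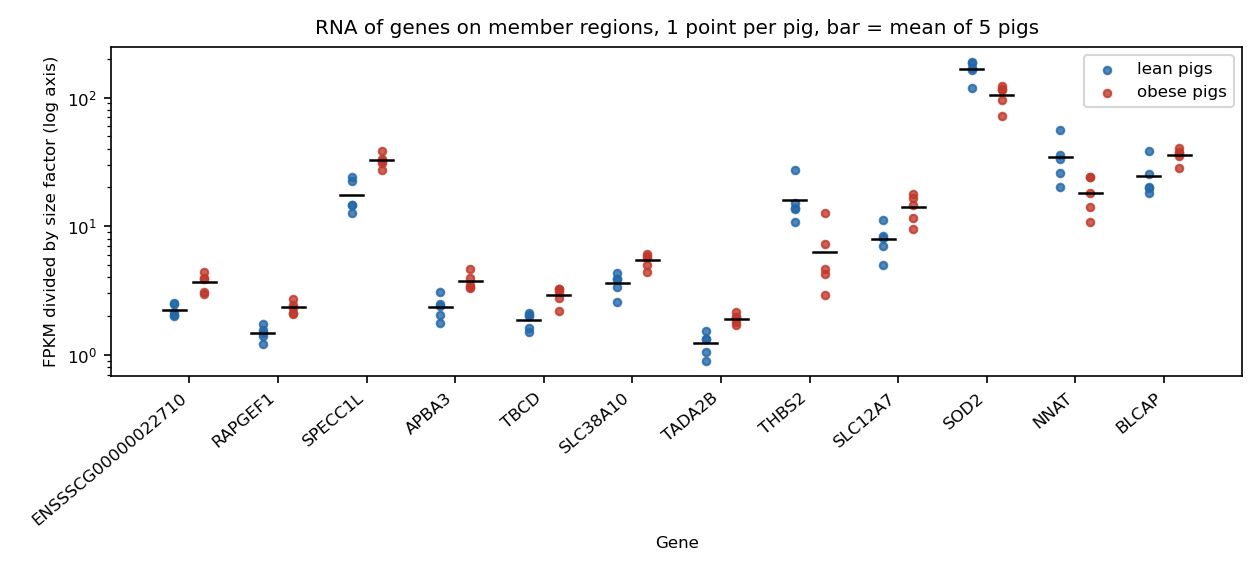
FPKM divided by the size factor of the library (log axis) in 5 lean (blue) and 5 obese (red) boars, 1 point per boar with the mean as a bar, for the 10 genes on members with the lowest limma p-values and for NNAT and BLCAP. From the left, the first 7 genes, picked by their low p-values in these same boars, have no overlap of the groups. THBS2, SOD2 and NNAT are the ones with a lower mean in obese boars.

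The 2 genes of the imprinted region differed in the sign of their RNA values. NNAT had 35.8, 20.3, 33.5, 26.1 and 55.7 in lean and 24.2, 18.0, 14.2, 24.0 and 10.7 in obese boars, and BLCAP 38.4, 25.6, 18.2, 19.8 and 20.1 in lean and 38.1, 34.9, 28.3, 37.3 and 40.2 in obese boars. For NNAT 3 of 5 obese boars were under all lean boars (log2 fold change -0.86, SE 0.29, limma adjusted p = 0.165, exact permutation p = 0.0318), and for BLCAP 1 lean boar was in the obese range (0.58, SE 0.20, limma adjusted p = 0.168, exact permutation p = 0.0397). The locus of NNAT (chr17:46043302-46045923) lies inside that of BLCAP (chr17:46039730-46049992), so fragments could be split between them. GRB10 averaged 4.29 ± 2.44 in lean and 2.55 ± 1.23 in obese boars, GNAS 257 ± 32.4 and 239 ± 24.1, and OSBPL5 1.01 ± 0.303 and 1.11 ± 0.192 (SD, n = 5 each), with limma adjusted p-values of 0.465, 0.693 and 0.743.

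Of the lipid and insulin genes with members, LSS had the lowest p-value. It had 56.1, 68.0, 17.9, 33.4 and 33.1 in lean and 77.1, 52.8, 69.2, 65.8 and 75.7 in obese boars (log2 fold change 0.82, SE 0.31, limma adjusted p = 0.189, exact permutation p = 0.0476). FASN, with 3 members of higher methylation in obese pigs, had 1153, 1288, 411.05, 598 and 1193 in lean and 2408, 691, 1025, 1119 and 996 in obese boars. Its groups overlapped (log2 fold change 0.42, SE 0.40, limma adjusted p = 0.562). It was 0.16 without the third lean boar and 0.15 without the first obese boar. AKT2 averaged 195 ± 73.5 and 229 ± 30.8 and SHC1 6.41 ± 0.914 and 7.14 ± 2.16 (SD, n = 5 each, limma adjusted p = 0.535 and 0.719). The log2 fold change of AKT2, 0.32, was 0.05 without the third lean boar.

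HLCS, within 5000 bases of the member that also borders SIM2, had 41.4, 24.3, 13.6, 29.5 and 21.3 in lean and 44.0, 40.8, 51.5, 40.8 and 47.7 in obese boars. The highest lean boar alone reached the obese values (log2 fold change 0.85, SE 0.24, limma adjusted p = 0.136, exact permutation p = 0.0238). LAMC1, a laminin chain whose nearby member read 29.1% against 42.7%, averaged 41.7 ± 7.75 and 29.5 ± 4.92 (SD, n = 5 each, log2 fold change -0.48, SE 0.15, limma adjusted p = 0.155).

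Of the genes with 3 or more members, PXDN averaged 4.94 ± 2.58 in lean and 2.18 ± 1.198 in obese boars (log2 fold change -0.88, SE 0.35, limma adjusted p = 0.204), and SEPT9 2.90 ± 0.624 and 4.44 ± 0.9996 (0.48, SE 0.16, limma adjusted p = 0.16). TMEPAI averaged 6.51 ± 5.17 and 10.8 ± 2.90 (0.999, SE 0.53, limma adjusted p = 0.296, and 0.52 without the third lean boar) and STK25 7.14 ± 0.839 and 7.92 ± 0.842 (0.13, SE 0.10, limma adjusted p = 0.451), with n = 5 and SD throughout. Of the genes with the largest differences, BIN3 averaged 1.08 ± 0.310 and 1.502 ± 0.210, DGKD 1.48 ± 0.517 and 1.05 ± 0.118, SLC37A1 1.18 ± 0.136 and 1.45 ± 0.418, MLLT3 1.54 ± 0.304 and 1.67 ± 0.122, and IDH3G 17.3 ± 3.33 and 17.6 ± 0.954 (limma adjusted p = 0.228, 0.311, 0.499, 0.65 and 0.87).

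Genes at members with a captured region included NPLOC4, a cofactor of the segregase p97, which averaged 8.05 ± 0.982 in lean and 10.6 ± 1.38 in obese boars (log2 fold change 0.36, SE 0.11, limma adjusted p = 0.141). ITPK1 averaged 1.51 ± 0.256 and 2.40 ± 0.575 (0.43, SE 0.13, limma adjusted p = 0.141) and NUDT16L1 1.89 ± 0.366 and 2.97 ± 0.652 (0.45, SE 0.13, limma adjusted p = 0.137). EXOC2, where the 2 methylation assays differed in direction, averaged 7.86 ± 0.642 and 6.60 ± 0.613 (-0.22, SE 0.09, limma adjusted p = 0.192). PTTG1IP, MED9 and FEM1A had log2 fold changes of 0.42, 0.22 and 0.24 (SE 0.18, 0.09 and 0.11, limma adjusted p = 0.219, 0.226 and 0.237). The other 10 listed genes that could be tested had log2 fold changes between -0.73 and 0.46 and limma p-values of 0.112 or more before adjustment.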

How the data were processed

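RRBS, mDNAcap and RNA sequencing of mature pig adipocytes were read from the deposited tables. For RRBS the authors mapped reads to Sscrofa10.2 with Bismark 0.10 and Bowtie2 2.1.0, kept CpGs covered by 5 reads or more and ran the region search of metilene, with values from at least 3 pigs per group. The deposited group value is a fraction, the mean methylation of a region, here printed in percent, and the number of CpGs stands beside it. For mDNAcap the deposited value is a normalized count per library (diffReps 1.55.4, windows of 1000 bases at steps of 100 bases). For RNA the authors deposited FPKM from STAR 2.3.1 and Cufflinks 2.2.0. Columns with the authors' own differences, fold changes and p-values were not used. The depth of single RRBS regions and of the RNA libraries cannot be read from these values.

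Differences were obese minus lean by subtraction, since the deposited difference departed from it by over 0.02 in 6 regions. Genes were assigned by the loci of the FPKM tables, with bedtools 2.31.1, by at least 1 base or within 5000 bases. FPKM were divided by median-of-ratios size factors (0.693 to 1.23), and the libraries of pig-572 averaged. Of 25285 gene IDs, 9 had a failed estimate. Where the mean FPKM reached 1, limma 3.58.1 in R 4.3.3 compared the groups on log2 of the value plus 1, and p-values were adjusted after Benjamini-Hochberg (threshold 0.05). Normalized counts were compared likewise, without a filter, over 11 and 11 libraries (pig-584 has no values there). Both fits were tested on simulated data with independent noise and changes larger than those given here. That test does not cover smaller changes or shifts of a whole library. Single genes had a two-sided exact permutation test with scipy 1.17.1. Each sample comes from 1 pig, but pig-572 gave more than 1 RNA sample and the assays share pigs.

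The members, gene lists and tests were chosen with earlier results of these data known. Regions named are the 5 largest rises and falls near a named gene, those overlapping a captured region, those near a listed gene, those of genes with 3 or more members and the 3 on each side of a bound. RNA values are given for the 10 overlapped genes with the lowest p, for the genes of the largest changes, of 3 or more members and of the imprinted, adipocyte and insulin lists, and otherwise where the unadjusted p was under 0.05. The alternatives were other bands and tables, other loci, scalings, pseudocounts and filters, and leaving out each boar. Values of a few genes that this rule names are not reported here.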

Additional observations from a re-analysis of the deposited data

Results flagged for a closer look

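Of 74 groups of 5 boars (37 genes named with RNA values, lean and obese), 5 held a boar whose gap to its nearest neighbour took more of the range than the 95% limit of Dixon's test for 5 samples allows. Chance flags about 1 in 20 such groups. For THBS2 the highest lean boar stood at an FPKM of 27.3, with the next at 15.1. For PTTG1IP the lowest obese boar stood at 12.9, with the next at 18.3. For STK25 the highest lean boar stood at 8.59 and the next at 7.05. For AKT2 the lowest obese boar stood at 176 and the next at 231. For FASN the highest obese boar stood at 2408 and the next at 1119.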

How the results depend on the processing

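No paired analysis was possible because the lean and obese groups are different pigs, and the replicate numbers do not link them. In the separate table that required 5 pigs per group, 357 regions met the same rule, 68.1% of them higher in the obese group. That share was 79.0% with the band on the obese mean, 76.1% with the band on the mean of both groups, and 75.7% for members with at least 15 CpGs. It was 77.0% for members at least 15 points apart, which is no check of direction, since members with a lean mean under 15% cannot be lower by that much. With loci extended by 5000 bases, 61.6% of members were on a locus. Members at a captured region numbered 79 within 1000 bases and 11 in the table that required 5 pigs. Captured regions called at members were 40 to 42 of 43 under the other scalings and pseudocount. Of all 7401 captured regions, 7173 were called with pseudocount 5, 2932 with the median of ratios and 3195 scaled by the mean count per bin. With the mean count per bin as a covariate, 0 were called at members and 0 of all regions. That covariate was chosen after seeing the data, as was the scaling by it. Genes on members with an unadjusted limma p-value under 0.05 numbered 36 with FPKM as deposited (15.1%, all genes 13.6%), 96 of 482 without the filter on low values (19.9%, all genes 15.4%), 96 of 378 with extended loci (25.4%, all genes 20.8%), and between 36 and 64 when a boar was left out (15.3% to 26.9%, all genes 14.3% to 26.5%). The number past the adjusted threshold was 0, and between 0 and 5 when a boar was left out. The cause was not tested. Of the 25 named genes with an unadjusted limma p-value under 0.05, all kept their direction under the 14 alternatives, and 18 kept that p-value in each. Many were named for low p-values in these same boars, so the kept direction is no independent check. Of the other 12, 3 changed sign when a boar was left out: the log2 fold change ranged from -0.0345 to 0.17 for SHC1, from -0.0196 to 0.13 for OSBPL5 and from -0.0333 to 0.13 for IDH3G. The read depth of single RRBS regions is unknown, a group mean may rest on 3 pigs, and no error can be given for it.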
